A study of Mus musculus with 20 samples.

Results

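The genes described are 10 of the 25219 genes of the deposited table, chosen by symbol because they mark the progenitor and stromal cells of adipose tissue: Pdgfra, Pdgfrb, Dpp4, Pi16, Cd55, Cd34, Ly6a, Cd24a, Zfp423 and Dcn. All 10 were found and all 10 passed the filter on low counts in each comparison. RNA of inguinal white adipose tissue (iWAT) and brown adipose tissue (BAT) of male mice on a mixed C57Bl/6 background was sequenced in 20 libraries, 5 from each of 4 groups. Ai-α4KO mice carried floxed alleles of Igbp1, the gene for α4, a protein that binds the catalytic subunit of the phosphatase PP2A, and an Adiponectin-CreERT2 transgene, a recombinase that tamoxifen activates. Control mice carried the floxed alleles without the transgene, and the sample labels call them wild type. Both genotypes received repeated tamoxifen injections from 2 months of age, and tissue was taken 1 week after recombination. The adiponectin promoter drives the recombinase in adipocytes, whereas the RNA came from whole tissue, so the progenitor and stromal cells were measured together with all other cells of the depot.

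Adipocytes arise from fibroblast-like cells of the stroma that carry the PDGF receptor PDGFRα on their surface. Within them, DPP4+ PI16+ cells of the interstitium are held to be the early progenitors, whereas ICAM1+ preadipocytes are closer to the adipocyte. PDGFRβ is found on pericytes and other mural cells of vessels as well as on progenitors, and ZFP423 is a zinc finger factor that commits preadipocytes to the white fate and restrains the thermogenic program in mature adipocytes. None of these genes is restricted to progenitors: CD34 is also on endothelial cells, SCA-1 (Ly6a) on endothelial and blood cells, CD24 on B cells and neutrophils, and DPP4 on T cells.

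Counts per library ran from 24023371 to 50384446. CPM stands for TMM-normalized counts scaled to a common library total. Igbp1 itself was at 67.2 ± 7.01 CPM in Control and 10.8 ± 0.394 CPM in Ai-α4KO libraries of iWAT, and in BAT at 93.9 ± 7.29 and 17.0 ± 4.83 (SD, n = 5 per group). Summed B cell markers were at 513 CPM in Control iWAT 1 and 204 in Control iWAT 4, against at most 14.2 in any other library. Summed T cell markers were at 220 and 238 CPM in the same 2 libraries, against at most 10.7 in the other Control iWAT libraries and 14.8 to 55.0 in Ai-α4KO iWAT. Summed skeletal muscle markers were between 846 and 9159 CPM in Control BAT and between 12501 and 40427 in Ai-α4KO BAT, and Control iWAT 4 and Ai-α4KO iWAT 1 held 6648 and 5280. The labels do not say that libraries came from separate animals, so p-values measure the spread between libraries.

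Genes were called changed if they passed both an adjusted p of 0.01 and a difference of 2-fold, with p from the edgeR quasi-likelihood test and the Benjamini-Hochberg method over all genes tested. In iWAT 2 of the 10 genes rose in Ai-α4KO libraries, Cd24a and Ly6a, 1 fell, Zfp423, and 7 did not pass. Over all 14604 genes tested in iWAT, 11.3% rose and 10.7% fell. In BAT 3 genes rose, Cd24a, Ly6a and Cd34, and none fell, against 18.2% of all 14344 genes that rose and 13.3% that fell. With 10 genes, the shares called were near this background in both depots. At an adjusted p below 0.01 and any fold, the background was 21.5% higher and 18.8% lower for iWAT, with 25% and 24.8% for BAT. By that measure 3 of the 10 genes differed in iWAT, 2 of them higher, and 7 in BAT, 6 of them higher. The median log2 fold change of the 10 genes was 0.25 in iWAT, where that of all genes was 0.01, and 0.80 in BAT, where that of all genes was -0.03. The iWAT median was 0.47 without Ai-α4KO iWAT 2, 0.16 without Control iWAT 4 and 0.07 without Control iWAT 1 and 4. With the muscle marker score as a covariate, a score that separated the genotypes in BAT, 2 genes were called in BAT, Ly6a at 1.36 and Cd24a at 1.42, and the median there was 0.44, where 1706 of all genes rose and 1598 fell, against 2614 and 1910 without the covariate. In whole tissue a change in the number of cells of a type and a change in RNA per cell cannot be told apart.

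**Figure D1:**
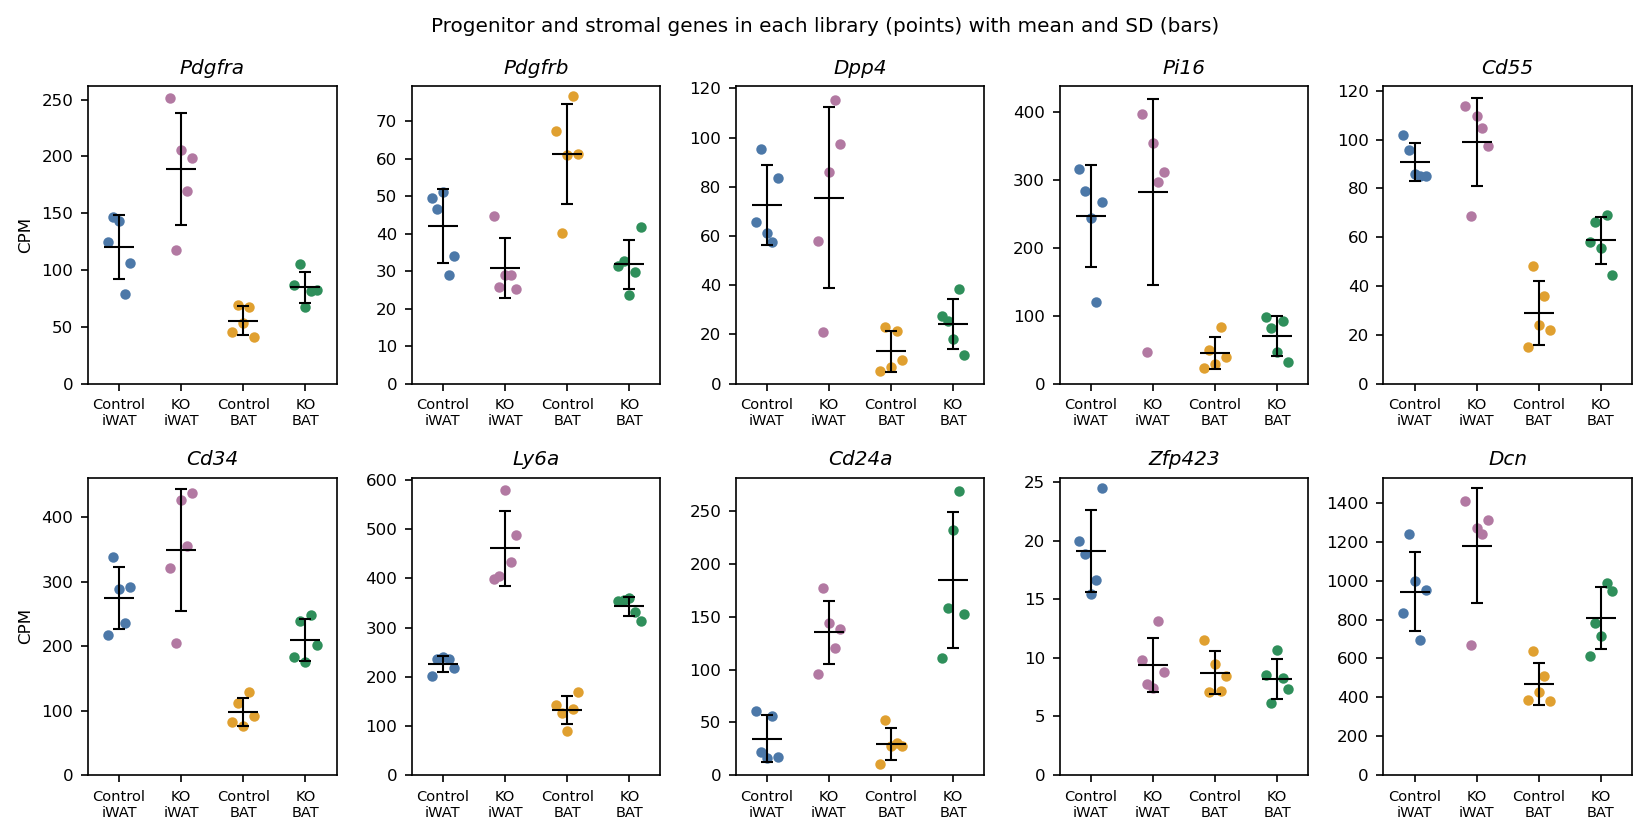
CPM of the 10 genes in every library (points, y axis from 0), with mean and SD (bars, n = 5) for Control and Ai-α4KO (KO) iWAT and BAT (x axis). The Ai-α4KO libraries of Ly6a and Cd24a lay above all Control libraries in both depots, and those of Zfp423 lay below them in iWAT.

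PDGFRα is the receptor that defines the fibroblastic progenitor pool. Pdgfra was at 125, 147, 143, 78.9 and 106 CPM in the Control iWAT libraries and at 251, 118, 206, 170 and 198 in Ai-α4KO iWAT. In BAT the values were 45.3, 69.5, 52.9, 67.1 and 40.9 in Control and 86.9, 105, 67.2, 81.2 and 82.5 in Ai-α4KO. In each depot 4 of the 5 Ai-α4KO libraries were above every Control library and 1 lay within the Control range. The log2 fold change was 0.65 in iWAT (standard error 0.22, adjusted p = 0.0248 by the edgeR quasi-likelihood test) and 0.58 in BAT (standard error 0.16, adjusted p = 7.8e-03), so neither was called, and the interval for iWAT ran from 0.17 to 1.12. With the muscle score as a covariate the BAT value was 0.53 (adjusted p = 0.105). The iWAT value was 0.43 without Control iWAT 1 and 4 (adjusted p = 0.142) and 0.58 with the B cell score as a covariate (adjusted p = 0.0772). Without Ai-α4KO iWAT 2 it was 0.78 (adjusted p = 6.52e-03).

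Its relative Pdgfrb had the opposite sign. Pdgfrb was at 49.4, 46.5, 51.1, 29.1 and 34 CPM in the Control iWAT libraries and at 44.6, 25.7, 29, 29 and 25.2 in those of Ai-α4KO iWAT, and the groups overlapped. In BAT it was at 67.3, 40.3, 60.9, 76.7 and 61.3 in Control and at 31.3, 32.7, 23.5, 29.7 and 41.8 in Ai-α4KO libraries, of which 4 were below all Control libraries. The log2 fold change was -0.46 in iWAT (standard error 0.20, adjusted p = 0.0741 by the edgeR quasi-likelihood test) and -0.98 in BAT (standard error 0.19, adjusted p = 6.56e-04). The BAT difference passed the adjusted p and missed 2-fold, and it passed both without Control BAT 2 (-1.12), without Ai-α4KO BAT 5 (-1.11) or with the B cell score as a covariate (-1.19). That score rests on low values in BAT. Summed B cell markers were between 1.41 and 4.73 CPM in Control BAT and between 3.22 and 6.18 in Ai-α4KO BAT. Of the 8 mural markers, the other place where Pdgfrb is expressed, 3 fell and none rose in iWAT, with Cspg4, a pericyte proteoglycan, lowest at a log2 fold change of -1.63. In BAT 3 fell and 1 rose: Rgs5, a pericyte regulator of G protein signaling, was at -2.05, and Des, the desmin gene that skeletal muscle also expresses, was at 2.20 and rose beside the muscle markers. With the muscle score as a covariate Pdgfrb in BAT was at -0.81 (adjusted p = 0.0349). The part of vessels in the Pdgfrb values was not tested.

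Of the ligands, PDGF-AA and PDGF-CC act through PDGFRα, PDGF-DD through PDGFRβ and PDGF-BB through both. Pdgfc was at 27.6 ± 3.5 CPM in Control and 52.7 ± 11.6 CPM in Ai-α4KO libraries of iWAT, and in BAT at 8.17 ± 2.29 and 37.8 ± 5.26 (SD, n = 5 per group). It rose in BAT (log2 fold change 2.18, standard error 0.19, adjusted p = 1.67e-06 by the edgeR quasi-likelihood test), and in iWAT its 0.93 passed the adjusted p (4.58e-04) but not 2-fold. Pdgfd fell in BAT from 25.5 ± 10.3 to 5.87 ± 0.850 CPM (log2 fold change -2.15, standard error 0.26, adjusted p = 2.16e-05), and in iWAT it was at 10.8 ± 2.31 and 7.92 ± 2.84 (adjusted p = 0.155). For both genes the genotype difference itself differed between depots, by 1.27 for Pdgfc (adjusted p = 3.33e-03) and by -1.67 for Pdgfd (adjusted p = 8.38e-03, interaction term of the edgeR quasi-likelihood fit). Pdgfb was at 17.7 ± 3.82 and 11.7 ± 3.44 CPM in iWAT and at 39.2 ± 16.8 and 22.1 ± 7.91 in BAT (adjusted p = 0.0354 and 0.0274), and Pdgfa stayed between 2.07 and 5.89 CPM in all libraries. Of the 10 genes of the PDGF ligand and proximal signaling list, none rose and 2 fell in iWAT, with Plcg1, a phospholipase that the activated receptors recruit, lowest at -1.32, and 2 rose and 2 fell in BAT.

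DPP4, a membrane peptidase, and PI16, a secreted peptidase inhibitor, mark the early progenitors of the interstitium. Dpp4 was at 65.7, 95.5, 61.3, 57.4 and 83.6 CPM in the Control iWAT libraries and at 58.1, 21, 86.2, 115 and 97.4 in those of Ai-α4KO iWAT. Pi16 was at 316, 283, 244, 121 and 267 CPM in the Control iWAT libraries and at 397, 46.4, 354, 297 and 312 in those of Ai-α4KO iWAT. Ai-α4KO iWAT 2 was the lowest of all iWAT libraries for both genes, and the groups overlapped. The log2 fold changes in iWAT were 0.05 for Dpp4 (interval -0.73 to 0.83, adjusted p = 0.918 by the edgeR quasi-likelihood test) and 0.19 for Pi16 (interval -0.80 to 1.18, adjusted p = 0.748), so a change of up to about 2-fold for Pi16 was within the interval. Without Ai-α4KO iWAT 2 they were 0.30 and 0.47, and without Control iWAT 1 and 4, the libraries with T cell markers, Dpp4 was at -0.17.

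In BAT both genes started from a low level. Dpp4 was at 5.01, 22.8, 6.66, 21.3 and 9.52 CPM in the Control BAT libraries and at 27.4, 25.4, 17.9, 38.5 and 11.6 in those of Ai-α4KO BAT. Pi16 was at 23.2, 49.4, 28.2, 83.5 and 39.2 CPM in the Control BAT libraries and at 98.1, 81.6, 45.8, 91.7 and 32.4 in those of Ai-α4KO BAT. The genotypes overlapped for both genes, and the log2 fold changes, 0.85 for Dpp4 (standard error 0.43, adjusted p = 0.10 by the edgeR quasi-likelihood test) and 0.60 for Pi16 (standard error 0.37, adjusted p = 0.169), did not pass. With the muscle marker score as a covariate they were 0.10 and 0.30. Without 1 library they ran from 0.64 to 1.12 for Dpp4 and from 0.43 to 0.95 for Pi16.

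Cd55 encodes decay-accelerating factor, a membrane inhibitor of complement that is also high on interstitial progenitors. In iWAT it was at 102, 95.9, 85.8, 85 and 85 CPM in Control and at 114, 68.6, 110, 105 and 97.4 in Ai-α4KO libraries, groups that overlapped (log2 fold change 0.12, interval -0.18 to 0.42, adjusted p = 0.483 by the edgeR quasi-likelihood test). In BAT it was at 15, 48, 24, 35.9 and 21.9 CPM in Control and at 58.1, 66.4, 55.8, 69.1 and 44.3 in Ai-α4KO libraries, 4 of which were above all Control libraries. The log2 fold change in BAT was 0.99 (standard error 0.26, adjusted p = 5.64e-03), just short of 2-fold, and it passed 2-fold without Control BAT 2 (1.22), Control BAT 4 (1.07) or Ai-α4KO BAT 5 (1.07). It also passed by DESeq2 (1.02), without TMM normalization (1.25), with limma on both FPKM scales (1.24 and 1.34) and with the B cell score as a covariate (1.17), a score that rests on low values in BAT. With the muscle score as a covariate it was 0.46 (adjusted p = 0.281). Reads of its close relative Cd55b, which the table does not list, may be counted with it.

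CD34 is a sialomucin of progenitors and endothelium. Cd34 was at 217, 338, 289, 236 and 292 CPM in the Control iWAT libraries and at 322, 204, 427, 356 and 438 in those of Ai-α4KO iWAT, where the groups overlapped (log2 fold change 0.34, standard error 0.20, adjusted p = 0.173 by the edgeR quasi-likelihood test). Without 1 library the iWAT change of Cd34 was 0.20 to 0.49, and without Control iWAT 1 and 4 it was 0.11. In BAT Cd34 was at 81.8, 111, 75.5, 129 and 91.5 CPM in Control and at 183, 239, 175, 249 and 201 in Ai-α4KO libraries, with no overlap. Cd34 rose in BAT, where its log2 fold change reached 1.06 (standard error 0.16, adjusted p = 1.32e-04), and the call rested on a narrow margin of size: the value was 0.998 without Control BAT 1, 0.98 without Control BAT 3, and 0.87 with the muscle score as a covariate (adjusted p = 0.0113). Of the 8 endothelial markers, 5 fell and 3 did not pass in BAT, 2 fell and 6 did not pass in iWAT, and none rose. Their sum was between 818 and 1189 CPM in Control BAT and between 359 and 459 in Ai-α4KO BAT, and Kdr, the VEGF receptor of endothelium, was lowest in both depots at -2.44 in BAT and -1.70 in iWAT. The part of endothelium in the Cd34 values was not tested.

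SCA-1, the product of Ly6a, is a surface antigen by which adipose progenitors are sorted. Ly6a was at 201, 235, 241, 236 and 217 CPM in the Control iWAT libraries and at 398, 405, 581, 433 and 488 in those of Ai-α4KO iWAT. In BAT it was at 142, 126, 90.1, 135 and 168 CPM in Control and at 353, 357, 360, 331 and 314 in Ai-α4KO libraries. No Ai-α4KO library overlapped with a Control library in either depot, and the Ai-α4KO BAT libraries lay between 314 and 360 CPM. Ly6a rose in both depots, and the log2 fold change came to 1.02 in iWAT (standard error 0.12, adjusted p = 4.64e-05 by the edgeR quasi-likelihood test) and 1.34 in BAT (standard error 0.15, adjusted p = 1.16e-05). In iWAT the size was at the 2-fold line: it was 0.92 without Control iWAT 1, 0.996 without Control iWAT 3, 0.93 without Ai-α4KO iWAT 3, 0.91 without both libraries with B cell markers, 0.99 by DESeq2 and 0.92 with upper-quartile normalization, at adjusted p of at most 6.92e-04 in all alternatives run. Reads of other Ly6 family genes may be split with it.

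CD24 is a small glycoprotein that marks an adipogenic subset of the progenitors, and Cd24a showed the largest difference of the 10 genes in both depots. It was at 60.9, 21.9, 15.9, 56.2 and 16.7 CPM in the Control iWAT libraries and at 95.9, 177, 144, 120 and 138 in those of Ai-α4KO iWAT. In BAT it was at 9.97, 52.2, 27.3, 30.3 and 27.7 CPM in Control and at 111, 158, 232, 269 and 153 in Ai-α4KO libraries. The groups did not overlap in either depot. The log2 fold change of Cd24a, which rose, was 1.97 in iWAT (standard error 0.40, adjusted p = 1.59e-03 by the edgeR quasi-likelihood test) and 2.62 in BAT (standard error 0.37, adjusted p = 7.39e-05). The highest Control iWAT values were those of libraries 1 and 4, the libraries with B cell markers, and without them the iWAT value was 2.81. With the muscle score as a covariate the BAT value was 1.42 (adjusted p = 1.75e-03). Neutrophil markers, from cells that also carry CD24, rose beside it: 4 of 6 in iWAT and 6 of 6 in BAT, with summed levels from 39.2 to 126 CPM in Control iWAT and 178 to 537 in Ai-α4KO iWAT, and from 14.3 to 41.5 and 212 to 397 in BAT. All 6 macrophage markers rose in both depots, with a sum that was between 1172 and 2018 CPM in Control and between 7164 and 9597 in Ai-α4KO libraries of iWAT, and in BAT between 233 and 526 against 4224 to 6977. The part of these cells in the Cd24a and Ly6a values was not tested. Processed copies of Cd24a elsewhere in the genome could share its reads.

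Zfp423 was the only one of the 10 genes that fell by the call. It was at 20, 18.9, 15.5, 16.7 and 24.5 CPM in the Control iWAT libraries and at 9.86, 7.82, 7.4, 13.2 and 8.82 in those of Ai-α4KO iWAT, with no overlap. The log2 fold change in iWAT was -1.03 (standard error 0.18, adjusted p = 7.08e-04 by the edgeR quasi-likelihood test), which is a 2.04-fold decrease. It shrank to under 2-fold without Control iWAT 5 (-0.92) or Ai-α4KO iWAT 2 (-0.96), 3 (-0.945) or 5 (-0.998), to -0.91 without TMM normalization, and to -0.65 and -0.87 with limma on log2(FPKM + 1) and log2(FPKM + 0.1), at adjusted p below 0.01 each time. In BAT Zfp423 was at 11.5, 7.12, 9.47, 7.20 and 8.44 CPM in Control and at 8.51, 6.18, 10.7, 8.3 and 7.31 in Ai-α4KO libraries, which overlapped (log2 fold change -0.13, interval -0.55 to 0.29, adjusted p = 0.575), and the sign of that value turned under other scalings. Its mean in Ai-α4KO iWAT, 9.42 ± 2.32 CPM (SD, n = 5), lay within the range of the Control BAT libraries, whose mean was 8.75 ± 1.83 (SD, n = 5). Of 10 genes listed as partners of ZFP423 or as BMP inputs to commitment, none passed in iWAT, where Bmp2 was highest at 0.97 and Bmp4 lowest at -0.85, and 1 fell in BAT, Ebf1 at -1.28, an adipogenic transcription factor. The list leaves out Ebf2, counted below with the committed preadipocyte markers. Ebf2 fell in both depots, at -1.18 in iWAT and -2.06 in BAT.

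Dcn encodes decorin, a small proteoglycan that binds collagen and marks fibroblasts in general. It was at 835, 1241, 998, 695 and 954 CPM in the Control iWAT libraries and at 1413, 667, 1272, 1240 and 1314 in those of Ai-α4KO iWAT, which overlapped (log2 fold change 0.32, standard error 0.21, adjusted p = 0.223 by the edgeR quasi-likelihood test). Without 1 library the iWAT change was 0.21 to 0.47, highest without Ai-α4KO iWAT 2 (adjusted p = 0.0311). Without Control iWAT 1 and 4 it was 0.07. In BAT Dcn was at 385, 637, 425, 508 and 382 CPM in Control and at 610, 782, 714, 987 and 949 in Ai-α4KO libraries, of which 610 alone lay within the Control range. The log2 fold change in BAT was 0.76 (standard error 0.18, adjusted p = 2.94e-03), which passed the adjusted p and not 2-fold, and it was 0.42 with the muscle score as a covariate (adjusted p = 0.184). It passed 2-fold without TMM normalization (1.01) and with limma on log2(FPKM + 1) (1.02) and log2(FPKM + 0.1) (1.03). The 2 genotypes had separate ranges for 3 of the 10 genes in iWAT and 3 in BAT, against 39% and 47.6% of all genes.

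**Figure D2:**
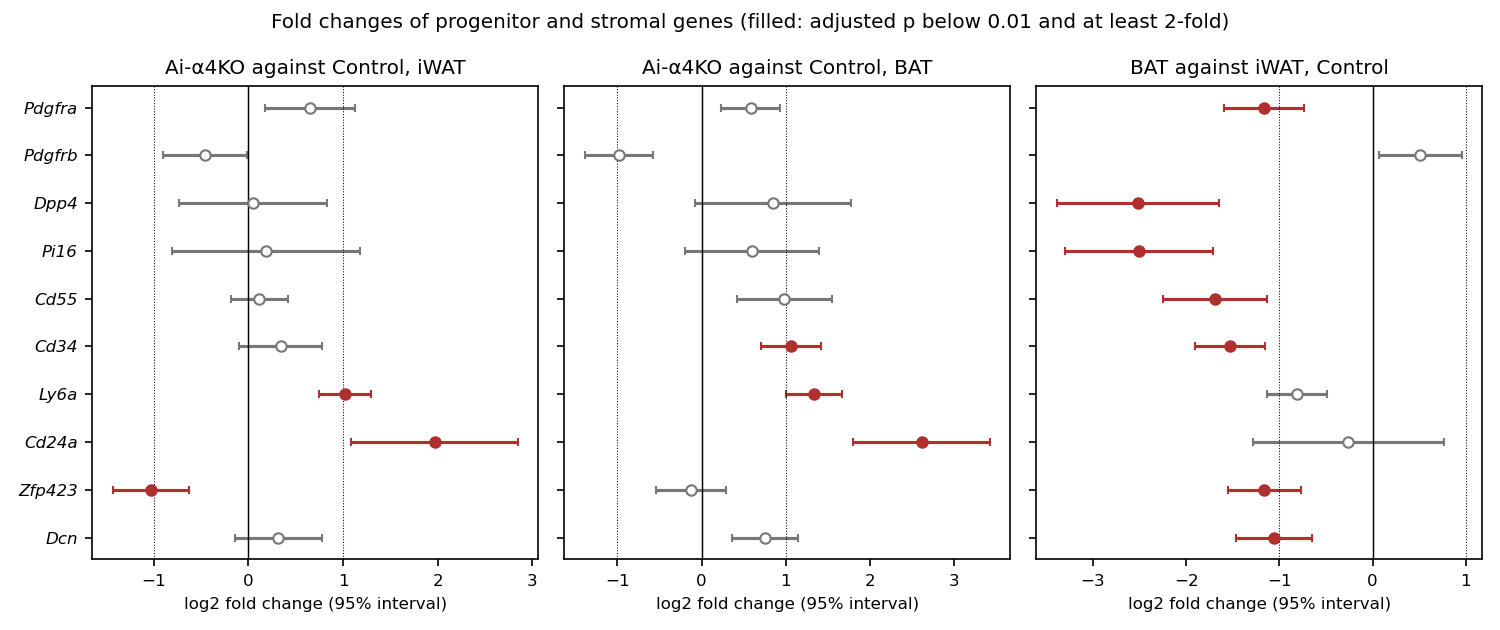
Log2 fold change (x axis, 95% interval) of the 10 genes for Ai-α4KO against Control in iWAT and in BAT and for Control BAT against Control iWAT, from the edgeR quasi-likelihood fit. Filled points passed an adjusted p of 0.01 and 2-fold (dotted lines): 3 in iWAT, 3 in BAT and 7 between depots.

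The depots were then compared in Control libraries, to give the levels from which the genotypes departed. This comparison uses the same Control libraries as those above. Of the 10 genes 7 were lower in Control BAT than in Control iWAT and none was higher, where 14.7% of all 14260 genes tested were lower and 7.22% higher. The median log2 difference of the 10 genes was -1.16 and that of all genes was -0.01. Dpp4 and Pi16 differed most, by -2.52 (standard error 0.40, adjusted p = 3.28e-04 by the edgeR quasi-likelihood test) and -2.50 (standard error 0.36, adjusted p = 1.83e-04), from 72.7 ± 16.2 to 13.1 ± 8.39 CPM and from 246 ± 75 to 44.7 ± 23.9 (SD, n = 5 each). Cd55 differed by -1.69, Cd34 by -1.53, Pdgfra and Zfp423 by -1.16 each and Dcn by -1.06, all at an adjusted p of at most 6.50e-04. Dcn missed 2-fold without Control iWAT 2 (-0.93), Control BAT 1 (-0.99) or Control BAT 5 (-0.96). Ly6a was lower by 0.81 on the log2 scale, under 2-fold (-0.81, adjusted p = 8.34e-04). With limma Ly6a passed 2-fold on log2(FPKM + 1) and log2(FPKM + 0.1), at -1.004 and -1.010, and Zfp423 missed it on the first, at -0.92.

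Pdgfrb and Cd24a did not follow. Pdgfrb was at 42 ± 9.87 CPM in Control iWAT and 61.3 ± 13.4 in Control BAT (log2 difference 0.51, adjusted p = 0.0535 by the edgeR quasi-likelihood test), and Cd24a was at 34.3 ± 22.3 and 29.5 ± 15 (-0.26, interval -1.28 to 0.76). The Cd24a difference was 0.67 without Control iWAT 1 and 4 and -1.58 with the muscle score as a covariate (adjusted p = 0.071). The muscle marker sum was at most 171 CPM in 4 of the 5 Control iWAT libraries and at least 846 in Control BAT. With the muscle score as a covariate 3 genes were lower in Control BAT, Dpp4, Cd34 and Cd55, while Pi16 was at -1.94, Zfp423 at -0.96, Dcn at -0.72 and Pdgfra at -0.65 (adjusted p = 0.0197, 0.0153, 0.0666 and 0.0842), and Pdgfrb was higher at 1.08 (adjusted p = 8.79e-03). Over all genes 1460 were lower and 939 higher in that fit, against 2092 and 1030 without the covariate.

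The genotype difference itself was compared between depots by the interaction term of the edgeR quasi-likelihood fit. None of the 10 genes passed an adjusted p of 0.01, where 4.86% of all 15230 genes did. Zfp423 came nearest, with a log2 difference of 0.93 between its BAT and iWAT changes (interval 0.37 to 1.48, adjusted p = 0.0248), followed by Cd55 at 0.89 (interval 0.23 to 1.56, adjusted p = 0.0629) and Cd34 at 0.75 (interval 0.19 to 1.32, adjusted p = 0.0663). At an unadjusted p under 0.05 the count was 3, where 31% of all genes passed, and by DESeq2 it was 1, Zfp423, where 10.8% of all genes passed. Without Ai-α4KO iWAT 4 the Zfp423 term was 1.18 and passed (adjusted p = 7.71e-03). For Pdgfra the 2 changes differed by -0.03, with an interval from -0.63 to 0.56.

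Levels of different genes are compared as FPKM, the count scaled by transcript length and library total. In Control iWAT Dcn led at 407 ± 87.5 FPKM, followed by Ly6a at 202 ± 13.6, Pi16 at 98.6 ± 31.9 and Cd34 at 93.9 ± 16.1 (SD, n = 5 each). Cd55 followed at 32.4 ± 4.19, Cd24a at 17.3 ± 11.8, Pdgfra at 15.9 ± 3.5, Dpp4 at 10.4 ± 2.53, Pdgfrb at 6.95 ± 1.55 and Zfp423 at 3.52 ± 0.739. The neighbours Pi16 and Cd34, and Cd24a and Pdgfra, differed by less than their spread. Dcn and Ly6a were first and second, and Zfp423 last, in all 4 groups. Cd24a was the sixth in Control iWAT and the fifth in Ai-α4KO iWAT (72.8 ± 15.6 FPKM), and the fifth in Control BAT (12.5 ± 6.03) and the third in Ai-α4KO BAT (91.5 ± 27.4), ahead of Cd34 at 72.7 ± 11. That last gap was below the spread of Cd24a. Cd34 was ahead in Ai-α4KO BAT 1 (66.3 against 58.0) and Ai-α4KO BAT 2 (87.5 against 83.7). By mean, Pdgfrb was ahead of Pdgfra in Control BAT, at 8.83 ± 2.15 and 6.33 ± 1.40 FPKM, and in the other 3 groups Pdgfra was ahead. In Control BAT 2 the order was the other way, at 5.49 FPKM for Pdgfrb and 7.62 for Pdgfra.

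Each gene was also set against Pdgfra in the same library. The log2 ratio of CPM was compared between genotypes by an exact two-sided permutation test over the 252 arrangements, in which the smallest p is 0.0079, with Benjamini-Hochberg adjustment over 18 ratios. Of the 18 ratios 6 passed an adjusted p of 0.05, at an exact p of at most 0.0159. At that exact p the ratio to Pdgfra was lower for 31.2% and higher for 5.29% of all genes tested in iWAT, and lower for 42.3% and higher for 11.5% in BAT, with Pdgfra itself at a log2 fold change of 0.65 and 0.58. The 9 ratios of each depot held 3 that fell in iWAT and 1 in BAT, near or below these shares. Pdgfrb fell against Pdgfra in both depots, from -1.51 ± 0.14 to -2.61 ± 0.31 for iWAT libraries and from 0.15 ± 0.56 to -1.42 ± 0.26 for BAT libraries (SD, n = 5 per group, exact p = 0.0079 and adjusted p = 0.0357 for each). Zfp423 fell against Pdgfra in iWAT, from -2.63 ± 0.46 to -4.30 ± 0.49 (exact p = 0.0079, adjusted p = 0.0357). In all 3 cases no Ai-α4KO library overlapped with a Control library.

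The other ratios that passed were smaller or went the other way. Cd55 fell against Pdgfra in iWAT by 0.54 on the log2 scale (-0.54, exact p = 0.0159, adjusted p = 0.0476), where its own log2 fold change was 0.12, while in BAT Cd34 rose against it by 0.48 (exact p = 0.0159, adjusted p = 0.0476) and Cd24a by 2.12 (exact p = 0.0079, adjusted p = 0.0357). Against Pdgfra, Dpp4 and Pi16 were at -0.77 and -0.69 in iWAT (exact p = 0.0794 and 0.1032) and at 0.39 and 0.04 in BAT (exact p = 0.3889 and 0.9444). The ratio of Dcn was at -0.34 in iWAT (exact p = 0.0317, adjusted p = 0.0816) and 0.16 in BAT (exact p = 0.3889). With 4 libraries against 5, 3 ratios passed when Ai-α4KO BAT 2, 3, 4 or 5 was left out, and Pdgfrb in BAT then missed at -1.51 to -1.68 (adjusted p = 0.0571, exact permutation test). Its genotypes still did not overlap in these cases, and over all libraries its difference was -1.57. Cd55 in iWAT missed without Control iWAT 4 (-0.42) or Ai-α4KO iWAT 1 (-0.48), 2 (-0.57), 3 (-0.54) or 5 (-0.51), and Cd34 in BAT missed without Control BAT 1 to 4 or Ai-α4KO BAT 2 to 5, at 0.40 to 0.51.

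**Figure D3:**
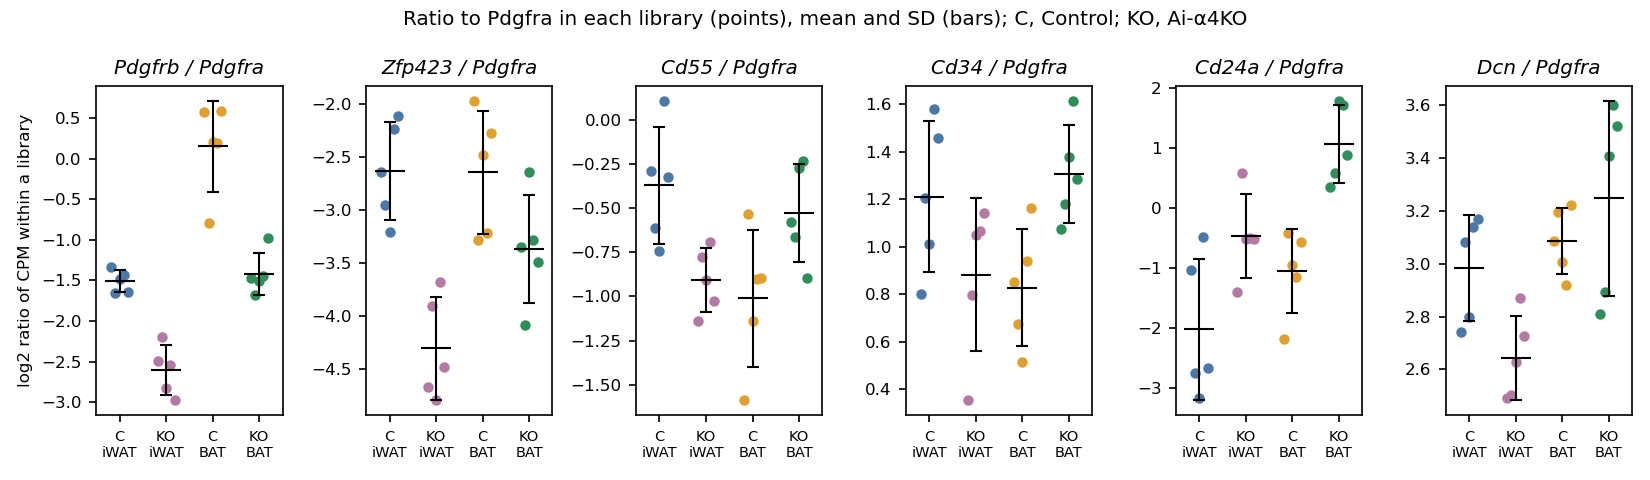
Log2 ratio of the CPM of 6 genes to that of Pdgfra within each library (points, y axis), with mean and SD (bars, n = 5) in the 4 groups (x axis; C, Control; KO, Ai-α4KO). The Pdgfrb ratio was lower in every Ai-α4KO library than in any Control library of the same depot.

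The 10 genes also differed in how closely their patterns over the 20 libraries ran together, measured as the root mean square difference of their centred log2 CPM, where 0 is an identical pattern. This is a description, since the points share libraries and depots. Cd34 and Dcn were closest at 0.28, followed by Pdgfra and Dcn at 0.30 and Cd34 and Cd55 at 0.31, and the 6 pairs among Pdgfra, Cd34, Cd55 and Dcn were the 6 closest of all 45. Dpp4 and Pi16 were next at 0.44. Cd24a stood apart, at a distance of 1.004 from its nearest gene, Ly6a, and Pdgfrb at 0.73 from Zfp423. Among all genes the nearest to Pi16 was Cd248, the stromal surface protein endosialin (0.36), the nearest to Dpp4 was Col14a1, a collagen of interstitial fibroblasts (0.39), and the nearest to Pdgfra was Afap1l2 (0.26). Cd34 had Kdelc2 (0.19) and Medag (0.20) nearest, and Medag was also the nearest to Cd55 (0.24). The nearest to the others were Wdr4 for Pdgfrb (0.19), Frmd6 for Dcn (0.20), Pdia3 for Ly6a (0.18), Prnp for Zfp423 (0.28) and Nceh1 for Cd24a (0.37).

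Promoters are shown for the genes of this closest group that the RefSeq promoter table holds, Pdgfra, Cd34 and Cd55, and for Zfp423, which moved apart from it. Promoters of 6 of the 10 genes were taken from the table (GRCm38.p6, the assembly also called mm10). Pdgfrb was left out of this search. Each sequence runs from 250 bases before to 50 after the annotated start, 5′ to 3′. Capitals mark matches, on either strand, to a short set of motifs: TATAAA for the TATA box, CCAAT for the box of that name, GGGCGG for the GC box, TGANTCA for AP-1, TTGCNNAA for C/EBP proteins and CACGTG for the E box.
Pdgfra, chr5:75152001-75152300, plus strand: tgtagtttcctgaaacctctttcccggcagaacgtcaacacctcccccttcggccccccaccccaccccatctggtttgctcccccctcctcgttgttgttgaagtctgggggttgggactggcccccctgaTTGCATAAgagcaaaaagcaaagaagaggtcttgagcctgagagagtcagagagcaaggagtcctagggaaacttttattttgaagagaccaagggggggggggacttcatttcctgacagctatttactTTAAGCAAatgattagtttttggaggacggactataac
Cd34, chr1:194938571-194938870, plus strand: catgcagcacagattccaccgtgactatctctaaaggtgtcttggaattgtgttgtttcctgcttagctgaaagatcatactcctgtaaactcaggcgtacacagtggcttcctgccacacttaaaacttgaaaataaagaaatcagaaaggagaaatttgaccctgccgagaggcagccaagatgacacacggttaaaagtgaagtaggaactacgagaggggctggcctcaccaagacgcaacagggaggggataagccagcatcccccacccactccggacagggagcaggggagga
Cd55, chr1:130462695-130462994, minus strand: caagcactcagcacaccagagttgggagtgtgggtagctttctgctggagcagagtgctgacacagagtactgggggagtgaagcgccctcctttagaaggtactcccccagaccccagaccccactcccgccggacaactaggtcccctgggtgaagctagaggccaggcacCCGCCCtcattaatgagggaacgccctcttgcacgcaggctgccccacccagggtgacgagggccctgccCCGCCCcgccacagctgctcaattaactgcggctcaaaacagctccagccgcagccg
Zfp423, chr8:87959546-87959845, minus strand: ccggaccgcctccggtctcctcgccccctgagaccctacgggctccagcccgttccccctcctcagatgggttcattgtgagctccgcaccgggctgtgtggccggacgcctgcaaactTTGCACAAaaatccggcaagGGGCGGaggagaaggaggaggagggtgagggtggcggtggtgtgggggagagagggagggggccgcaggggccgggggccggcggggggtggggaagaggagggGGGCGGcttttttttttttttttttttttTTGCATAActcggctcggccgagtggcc
The Pdgfra window held 2 matches to TTGCNNAA, the Cd55 window held 2 to GGGCGG, and the Zfp423 window shown held 2 of each, with no 2 of these matches overlapping. The table holds another Zfp423 promoter, at chr8:87804390-87804689 on the minus strand, which held 1 match to GGGCGG and none to TTGCNNAA and is not printed. The Cd34 window held none of the 6 motifs. Of all 32851 promoters of the table, 10.8% held TTGCNNAA, 35.7% GGGCGG, 37.4% CCAAT, 13.6% TATAAA, 7.81% TGANTCA and 7.15% CACGTG. The GC content was 65.7% for Zfp423, 63.3% for Cd55, 51.0% for Pdgfra and 50% for Cd34, where the median promoter had 52.7%. A match is a description of the letters only. In the table of counts Pdgfra lies at chr5:75152291-75198204, Cd34 at chr1:194938821-194961292, Cd55 at chr1:130439030-130462740 and Zfp423 at chr8:87661810-87959595. Of the others, Dpp4 lies at chr2:62330073-62412231, Pi16 at chr17:29318882-29328902, Dcn at chr10:97479500-97518162, Ly6a at chr15:74994877-74998031 and Cd24a at chr10:43579169-43584265.

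Other markers of the same cells were counted from lists chosen by cell type. Of 12 further markers of the DPP4+ PI16+ progenitors, 1 rose and none fell in iWAT, with a median log2 fold change of -0.50, and 4 rose and none fell in BAT, with a median of 0.54. Fn1, the fibronectin gene, was highest in both depots (1.19 in iWAT and 2.67 in BAT), and Dact2, a modulator of Wnt and TGF-β signaling, was lowest (-1.51 and -1.35, adjusted p = 0.0111 and 0.0129 by the edgeR quasi-likelihood test, neither called). All 12 were lower in Control BAT than in Control iWAT. Of 15 fibroblast matrix and pan-stromal genes, 2 rose and 1 fell in iWAT (median -0.05), while 8 rose and 2 fell in BAT (median 1.08), with Pdpn, the podoplanin gene, highest (1.75 and 3.16) and Gsn, the gelsolin gene, lowest (-2.01 and -1.66) in both.

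The markers of committed preadipocytes were split. In iWAT 2 of 11 rose and 3 fell, and in BAT 4 of 12 rose and 6 fell. Icam1, an adhesion molecule that inflamed endothelium also expresses, was highest in both depots (1.94 and 2.84). The lowest were Aoc3, an amine oxidase that adipocytes also express, in iWAT (-1.69) and Dlk1, the preadipocyte factor Pref-1, in BAT (-2.88). Of 6 markers of the CD142+ stromal cells, which restrain adipogenesis, 2 fell in iWAT, Gdf10 lowest at -1.14, 1 fell in BAT, F3, the gene for CD142 itself, at -1.33, and none rose. Adipocyte markers fell, 9 of 10 in iWAT and 7 of 10 in BAT, with Slc2a4, the insulin-responsive glucose transporter, lowest in iWAT (-2.85) and Pnpla2, the adipose triglyceride lipase, in BAT (-2.59).

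Genes of cell division rose in both depots, 6 of 6, with Ccnb1 highest in iWAT (3.03) and Mki67 in BAT (3.75), and which cells divided cannot be told apart in whole tissue. None of the 8 muscle markers passed in iWAT, and 6 rose in BAT. Of B cell markers 1 of 7 fell in iWAT and 1 of 3 rose in BAT, and of T cell markers none of 6 passed in iWAT, where Control iWAT 1 and 4 held 220 and 238 CPM of them, and 4 rose in BAT. Mesothelial markers gave 0 of 2 in iWAT and 1 of 2, lower, in BAT, and epithelial markers 0 of 4 in iWAT and 1 of 1, higher, in BAT.

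**Figure D4:**
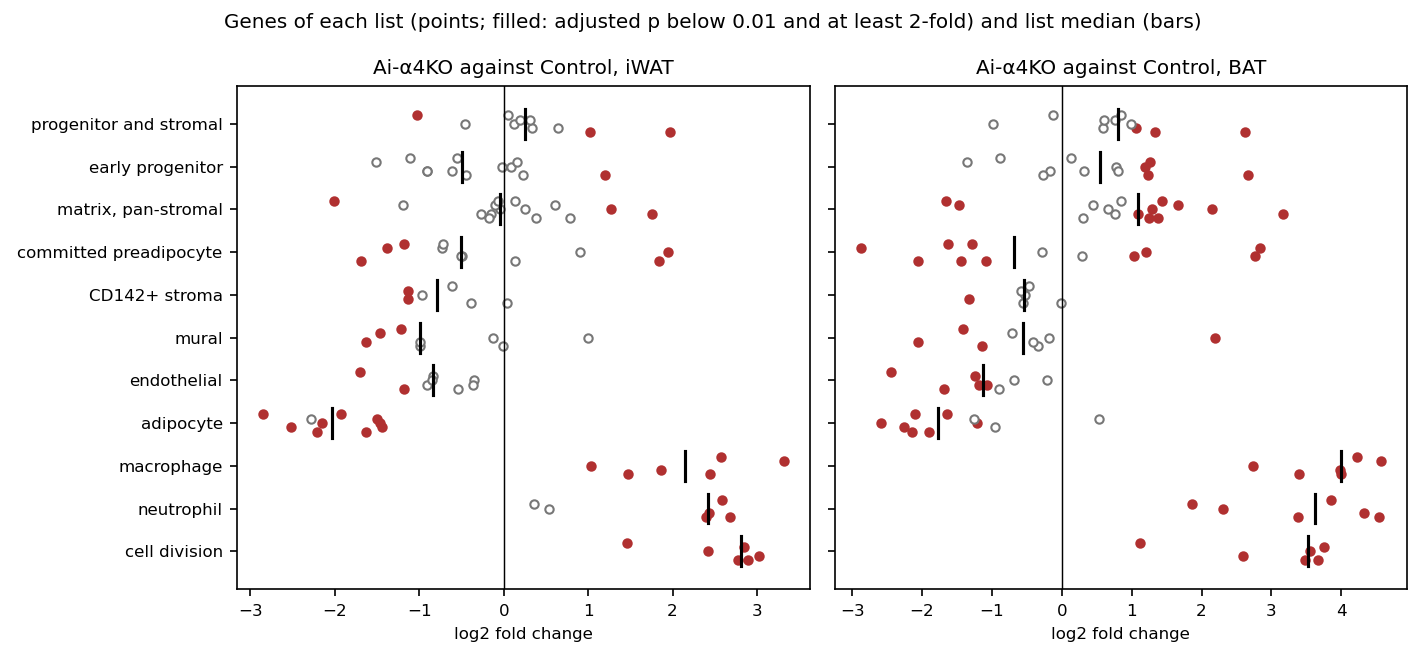
Log2 fold change (x axis) for Ai-α4KO against Control of each gene (points) of 11 lists of markers (y axis), in iWAT and BAT, with the median of each list (bars). Filled points passed an adjusted p of 0.01 and 2-fold; the matrix genes had a median of -0.05 in iWAT and 1.08 in BAT, and the endothelial and adipocyte medians were below 0 in both.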

How the data were processed

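Stranded mRNA libraries of iWAT and BAT were read as pairs. The submitters' processing notes name bcl2fastq 2, STAR 2.5.3a and the mm10 build, and the counting tool is not given in the sources used here. Per gene and library, the deposited values are an expected count (by the authors, not normalized) and an FPKM, and 76.7% of the nonzero expected counts are whole to within 1e-06. FPKM, by the authors, equals the count over transcript width and a library total. The other columns hold gene annotation.

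Expected counts were rounded and fitted in R 4.3.3 with edgeR 4.0.16 (filterByExpr, TMM, glmQLFit and glmQLFTest) within each depot, and over all 20 libraries for the interaction. Calls needed an adjusted p below 0.01 and 2-fold, and the interaction the adjusted p alone. A prior count of 2 was added for log2 CPM. Exact permutation tests served for the ratios to Pdgfra. Alternatives were DESeq2 1.42.0, limma 3.58.1 on log2(FPKM + 1) and log2(FPKM + 0.1), other normalizations, filters, thresholds and marker covariates, a replicate block, one fit of all libraries, and leaving out each library. Leaving out both Control iWAT libraries with B cell markers was chosen after seeing the data.

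The members and lists were chosen with earlier results of these data known. The complement regulator list is not reported here. Named genes are the 10 members, the PDGF ligands, Igbp1, Ebf2, the gene of each list with the largest increase or decrease in a depot, and the nearest genes by pattern, of which 2 per member were computed. The table lacks 5 symbols of the lists. Replicate numbers were not treated as pairs. No libraries agreed within sampling noise. Genome positions are those of the deposited table.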

Additional observations from a re-analysis of the deposited data

Results flagged for a closer look

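Libraries that stood apart from the other 4 of their group by Dixon's test (critical value 0.71) were found in 4 of the 40 groups of 10 genes in 4 conditions, where chance gives about 1 in 20. Pi16 was lowest in Ai-α4KO iWAT 2, at 46.4 CPM, and in Control iWAT 4, at 121 CPM. Dcn was lowest in Ai-α4KO iWAT 2, at 667 CPM, and Pdgfrb was highest in Ai-α4KO iWAT 1, at 44.6 CPM. Control iWAT 4 also held B cell and muscle markers, and Ai-α4KO iWAT 1 held muscle markers.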

How the results depend on the processing

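The counts of genes called were 3 in iWAT, 3 in BAT, 0 for the interaction and 7 between Control depots. The iWAT count was 2 by DESeq2, with upper quartiles and without Control iWAT 1 and 4 (each without Ly6a), and 2 without TMM and with limma on either FPKM scale (each without Zfp423). The BAT count was 4, with Cd55 added, by DESeq2, with upper quartiles, with at least 10 counts and in one fit of all libraries, and 2 with the muscle score. It was 5 without TMM and 5 with limma on either FPKM scale (with Cd55 and Dcn added), and 5 with the B cell score as a covariate (with Cd55 added as higher and Pdgfrb as lower). The interaction count was 1 by DESeq2 and 1 at an adjusted p of 0.05, Zfp423 each time. The depot count was 4 with the muscle score and 8 with limma on log2(FPKM + 0.1). Leaving out 1 library gave 1 to 3 in iWAT, 2 to 5 in BAT, 0 to 1 for the interaction, 6 to 7 between depots and 3 to 7 of 18 ratios. The cause was not tested. Without TMM the median of all genes was 0.13 in iWAT and 0.23 in BAT, and all calls in BAT were 3251 higher and 1265 lower, against 2614 and 1910. All calls in BAT were 2813 and 1865 by DESeq2, 2693 and 1819 with upper quartiles, and 1977 and 1607 with at least 10 counts. They were 2626 and 1854 in one fit of all libraries and 2620 and 1899 with the B cell score. In iWAT they were 1656 and 1559, and 1894 and 1267 without TMM, 1466 and 1813 with upper quartiles, and 1388 and 779 with limma on log2(FPKM + 1). They were 1684 and 1796 by DESeq2, 1923 and 1173 with limma on log2(FPKM + 0.1), and 1765 and 1754 without Control iWAT 1 and 4. Interaction calls over all genes were 496 higher and 244 lower, and 604 and 115 without TMM, 1254 and 386 by DESeq2, 1432 and 865 at an adjusted p of 0.05, 232 and 107 with the B cell score, 329 and 131 with the muscle score, and 412 and 68 without Control iWAT 1 and 4. Depot calls were 1030 and 2092, and 740 and 2496 without TMM and 784 and 2200 with limma on log2(FPKM + 0.1). Limma on log2(FPKM + 1) called 2118 and 807 genes in BAT and 532 and 1241 between depots.

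Signs turned only for values that did not pass. Dpp4 in iWAT was -0.0495 with upper-quartile normalization, -0.000211 with limma on log2(FPKM + 0.1), -0.0833 with a replicate block, -0.0361 with the B cell score, -0.0885 with the muscle score, -0.17 without Control iWAT 1 and 4, and -0.15 to 0.30 without 1 library. Zfp423 in BAT was 0.13 without TMM, 0.0796 and 0.13 with limma, and 0.12 with the muscle score. The Pdgfra interaction was 0.0295 by DESeq2, 0.0861 without TMM, 0.0532 with upper quartiles, 0.0325 without a filter, 0.10 with at least 10 counts, 0.0372 and 0.0888 with limma, 0.0462 with the B cell score, 0.22 without Control iWAT 1 and 4, and -0.13 to 0.21 without 1 library. The Cd24a interaction was -0.20 with the B cell score and -0.12 without Control iWAT 1 and 4, and its depot difference was 0.96 and 0.67, -1.58 with the muscle score, and -0.54 to 0.0547 without 1 library. The Pi16 ratio in BAT was -0.10 to 0.28 without 1 library. Deviations from the group means of same-numbered libraries correlated at -0.451 to 0.244 between groups, and in 5 of 20 cases the best partner of a library had its own number, so the numbers were not treated as pairs. With the replicate block the counts were 3, 4, 0 and 7, and Cd55 in BAT passed at 1.08. All calls, higher and lower, were then 1584 and 1461 in iWAT and 2509 and 1834 in BAT. They were 340 and 194 for the interaction and 1021 and 1927 between depots.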
